A study of Homo sapiens with 4 samples.

Results

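Complexes II to V of the mitochondrial respiratory chain, with cytochrome c, are described here through the 52 nuclear protein-coding genes whose symbols name their subunits. They were chosen among 20263 gene IDs by symbol alone (SDHA to SDHD, those starting with UQCR, CYC1, CYCS, COX4 to COX8 and those starting with ATP5). Complex II had 4 genes, complex III 10, complex IV 17 and complex V 20, and CYCS encodes cytochrome c. ATP5F1EP2 also has a symbol of this form, but it is annotated as a processed pseudogene and was left out. MDA-MB-231, a human cell line established from triple-negative breast cancer, was grown with 10% serum and kept for 24 h with DMSO, the solvent control, or with Neoribocic. Each group had 2 libraries, DMSO replicates 1 and 2 and Neoribocic replicates 1 and 2, each built with an mRNA kit from 1.4 µg of total RNA. The treatment protocol calls the compound Rib_CA, both names were read as one treatment, and its dose was not stated in the labels. Whether the libraries of a group were separate cultures was not stated either, so p-values reflect the spread between these samples alone, and that spread may be technical.

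Electrons enter the chain from succinate at complex II, which is also an enzyme of the tricarboxylic acid cycle, and pass by way of ubiquinone to complex III. Cytochrome c carries them from there to complex IV, which reduces oxygen to water. Complexes III and IV pump protons across the inner membrane, and complex V lets them flow back through its membrane sector to drive ATP synthesis in its F1 head. Complex II is encoded wholly in the nucleus, whereas complexes III, IV and V also hold subunits encoded by mitochondrial DNA, so their assembly draws on both genomes.

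Library totals ran from 34774542 to 43014212 counts. Mitochondrially encoded genes held 8.68% and 21.7% of the counts in DMSO replicates 1 and 2, against 5.76% and 7.24% in Neoribocic replicates 1 and 2, so DMSO replicate 2 stood apart in this share. Counts below 20 were even in 62.3% to 65.4% of cases, against 50.3% to 51.3% for counts of 20 to 200, a pattern that counting both mates of a read pair would leave. The 5 markers of mesenchymal breast lines were high in all libraries (VIM at 2804 to 4238 CPM), and 3 of them (CAV1, AXL and CD44) fell after Neoribocic, with a median change of -0.58 over the list. Luminal markers ESR1 (up to 0.649 CPM) and CDH1 (up to 0.141 CPM) were near 0, but GATA3 reached 21.8 CPM, EPCAM 9.93 CPM and ERBB3 9.88 CPM. Of the 3 luminal markers tested, 1 rose, against 19.1% of all tested genes. It was ERBB3, with a change of 1.08 (edgeR's test, adjusted p = 0.0246). Among leukocyte and fibroblast markers, CD3E and DCN had 0 counts in every library, whereas CD68 lay at 157 to 340 CPM and COL1A1 at 5.84 to 8.08 CPM. In bulk RNA, fewer cells with a transcript and less of it per cell cannot be told apart.

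Genes rose after Neoribocic in each of the 4 complexes. Of the 45 genes with enough counts to test, 19 rose and 1 fell, against 19.1% of all 13879 tested genes that rose and 21.3% that fell. Here and below, rose and fell mean an adjusted p under 0.05 in edgeR's quasi-likelihood test, adjusted by Benjamini-Hochberg over all tested genes, levels are counts scaled to library depth (CPM, with TMM factors), and fold changes are log2, Neoribocic minus DMSO. The median change was 0.95 over the 45 genes and 0.01 over all tested genes. Each library was also corrected for GC content and transcript length, by the longest or the shortest principal transcript. Then 9 and 8 members rose (17.2% and 17.1% of all genes), and the members' median was 0.51 and 0.50. That of complex V was 0.04 and 0.02. The members' corrected changes were lower at higher GC content (Spearman's rho -0.57 and -0.42), whereas the uncorrected ones were not (0.01). By complex the uncorrected median was 0.59 for complex II (0.13 to 0.69), 0.99 for complex III (-0.69 to 2.13), 1.28 for complex IV (0.43 to 1.83) and 0.86 for complex V (-0.48 to 2.55). In complex II 2 of 4 genes rose, in complex III 6 of 10, in complex IV 6 of 11 and in complex V 5 of 19, while CYCS did not pass the test. The differences between the complexes were not tested. Complex IV had the highest median and complex III the next in each of 17 alternative analyses. The lowest was that of complex II in 13 of them and of complex V in 4. All of these draw on the same 4 libraries, and the gap could be small, with 0.76 and 0.73 without Neoribocic replicate 1. Between replicates, the pooled SD of the library medians was 0.52 for complex IV and 0.60 for complex III, in log2 units.

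Both Neoribocic libraries lay above both DMSO libraries for 32 of the 45 genes (37.8% of all tested genes did so), below them for 2 (37.3% of all), and overlapped them for 11. The libraries of the Neoribocic group differed in size of response. Replicate 1 was above replicate 2 for 42 of the 45 genes, against 49.3% of all tested genes, and at least 2-fold above it for 15, against 2.80%. The median difference from the DMSO mean was 1.25 in Neoribocic replicate 1 and 0.66 in replicate 2. Without Neoribocic replicate 1, 7 members rose (7.09% of all genes in that fit), and without Neoribocic replicate 2, 33 rose (15.8% of all). Without DMSO replicate 1 the number was 8 (12.1% of all) and without DMSO replicate 2 it was 10 (11.8% of all). DESeq2 put the number at 29 (20.7% of all). Of the 19 calls, 5, 18, 7 and 9 were kept in the 4 fits without 1 library, in the same order. The gap between the treated libraries was smallest in complex II (0.73 and 0.46) and largest in complex IV (1.91 and 0.77), with 1.32 and 0.72 in complex III and 1.04 and 0.41 in complex V.

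**Figure D1:**
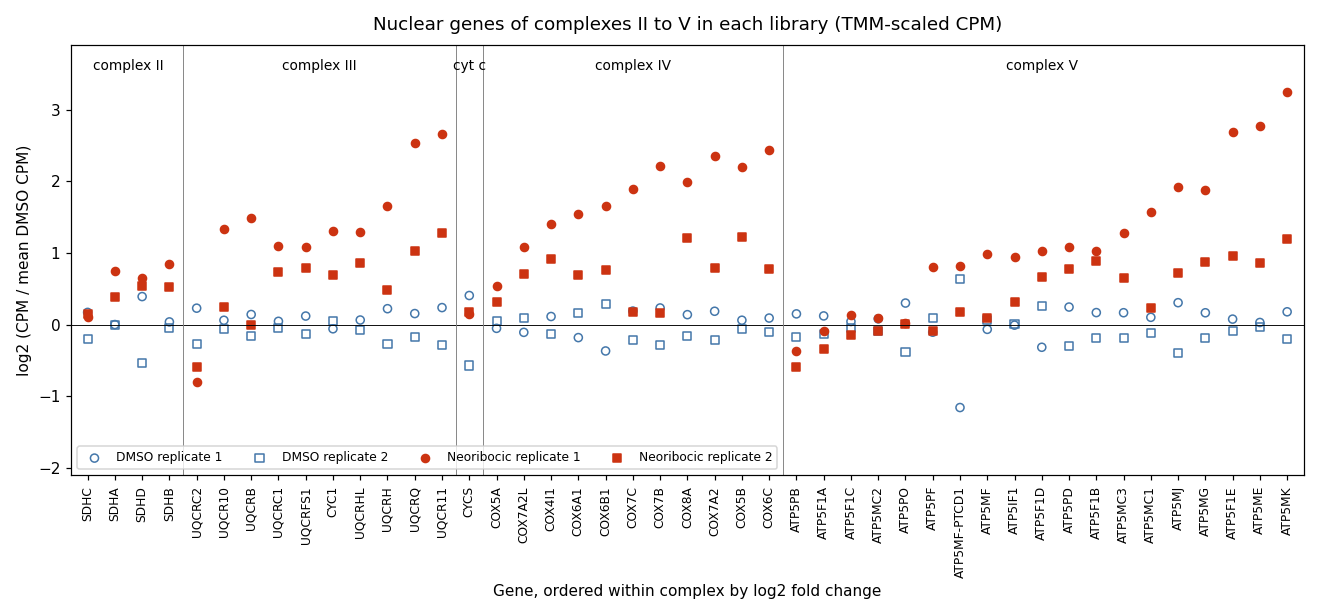
Each of the 45 tested genes is shown in all 4 libraries as the log2 ratio of its CPM to its mean DMSO CPM, ordered within each complex by fold change. Filled symbols (Neoribocic) lie above open symbols (DMSO) for most genes, with replicate 1 (circles) above replicate 2 (squares) for 42 of them.

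The same genes taken as sums gave 4092 and 3564 CPM in the DMSO libraries and 9402 and 5372 CPM in the Neoribocic libraries. Complex II summed to 469 and 398 CPM in DMSO and to 651 and 559 CPM after Neoribocic. Complex III went from 912 and 797 CPM to 2318 and 1233 CPM, complex IV from 796 and 797 CPM to 2688 and 1321 CPM, and complex V from 1745 and 1485 CPM to 3602 and 2114 CPM. In each complex both Neoribocic sums lay above both DMSO sums, and no test was made on the sums. Complex IV made up 20.8% of the members' summed CPM in DMSO and 27.1% after Neoribocic, and complex V made up 42.2% and 38.7%.

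**Figure D2:**
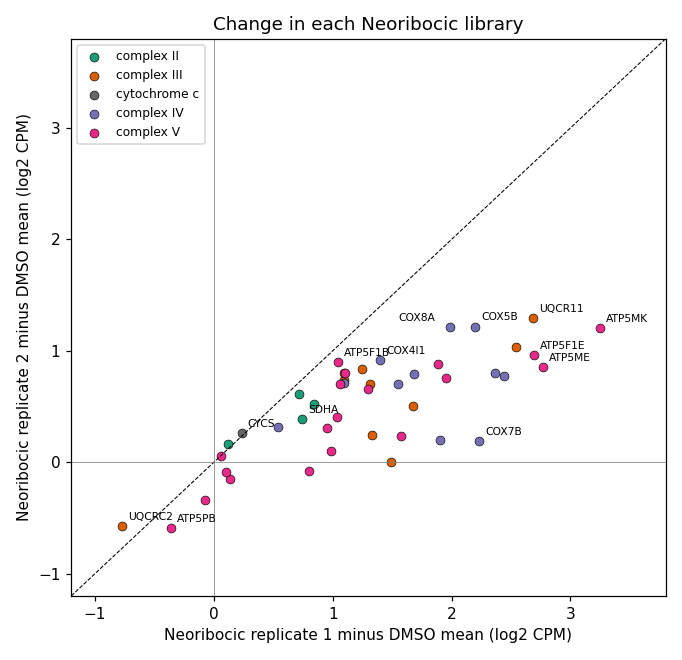
Each point is a tested gene, with its difference from the DMSO mean in Neoribocic replicate 1 on the horizontal axis and in replicate 2 on the vertical axis, both in log2 CPM. Most points lie below the dashed line of equal change, and ATP5MK, ATP5ME, ATP5F1E and COX7B lie among those farthest below it.

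RefSeq start sites were given for 39 of the 52 genes, 35 of them tested. Whether promoters had a part in the members' changes was not tested. In the window from 250 bases before to 50 bases after the start (GRCh38.p14), 4 motifs were searched on both strands, all chosen with the fold changes known. They were GCGCA followed by any 1 base and GCGC for NRF1 (nuclear respiratory factor 1), CCGGAAG for the ETS family, which includes GABPA, AANATGGCG for YY1, and GGGCGGG for SP factors. The NRF1 letters stood in 10 of the 35 promoters (28.6%), against 11.2% of 11050 tested genes and 5.78% of all 35116 promoters. The ETS letters stood in 15 (42.9%), against 18.6% and 10.3%, the YY1 letters in 6 (17.1%), against 6.53% and 3.19%, and the SP letters in 10 (28.6%), against 53.5% and 33.1%. NRF1 letters were in 2 of 3 complex II promoters, 4 of 7 of complex III, 0 of 10 of complex IV and 4 of 14 of complex V. Of the members that rose, 10 of 14 held the ETS letters, against 5 of 20 that did not pass the test. The NRF1 letters stood in 4 of 14 and 6 of 20, the SP letters in 4 of 14 and 6 of 20, and the YY1 letters in 4 of 14 and 2 of 20. Among all tested genes the ETS shares were 21.4% of those that rose and 19.0% of those not called. A match is a run of letters and shows no binding.

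The stretches below are the 150 bases before the RefSeq start, 5′ to 3′ on the gene's strand, with motif letters in capitals. They were picked with the values known and do not stand for the members at large. SDHA, UQCRC1 and UQCRFS1, catalytic or core subunits of complexes II and III that rose, are set beside UQCRC2, the member that fell. COX5B and COX8A are of complex IV. SDHB, the other catalytic subunit of complex II, also rose but is not shown, and holds the ETS and YY1 letters without those of NRF1. NRF1 letters stood in 4 of 14 members that rose and in 6 of 20 that did not pass the test. SDHA repeats the NRF1 letters as GCGCAGGCGC at 117, 68 and 19 bases before its start, UQCRC1 and UQCRFS1 hold them once as GCGCCTGCGC, read on the other strand, and UQCRC2 holds none of the 4 motifs. COX5B and COX8A hold the ETS letters 37 and 18 bases before the start. The YY1 letters of UQCRC1 and UQCRFS1 lie outside the stretches shown.
SDHA, chr5:218170-218319, plus strand: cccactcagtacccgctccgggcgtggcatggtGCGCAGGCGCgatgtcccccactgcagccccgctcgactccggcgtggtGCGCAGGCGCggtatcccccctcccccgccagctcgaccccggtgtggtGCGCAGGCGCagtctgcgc
UQCRC1, chr3:48609647-48609796, minus strand: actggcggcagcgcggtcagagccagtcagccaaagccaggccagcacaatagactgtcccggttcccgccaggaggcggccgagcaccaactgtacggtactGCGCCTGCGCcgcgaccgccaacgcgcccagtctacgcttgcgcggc
UQCRFS1, chr19:29213152-29213301, minus strand: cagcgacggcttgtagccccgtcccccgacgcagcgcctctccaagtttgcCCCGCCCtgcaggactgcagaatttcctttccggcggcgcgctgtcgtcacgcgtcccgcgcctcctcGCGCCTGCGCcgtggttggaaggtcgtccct
UQCRC2, chr16:21953211-21953360, plus strand: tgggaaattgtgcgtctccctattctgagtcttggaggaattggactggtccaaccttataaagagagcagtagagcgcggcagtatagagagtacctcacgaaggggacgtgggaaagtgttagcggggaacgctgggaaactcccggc
COX5B, chr2:97645912-97646061, plus strand: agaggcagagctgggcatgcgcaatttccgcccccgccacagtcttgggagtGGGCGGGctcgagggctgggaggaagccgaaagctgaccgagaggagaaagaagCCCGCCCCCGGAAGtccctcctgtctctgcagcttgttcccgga
COX8A, chr11:63974470-63974619, plus strand: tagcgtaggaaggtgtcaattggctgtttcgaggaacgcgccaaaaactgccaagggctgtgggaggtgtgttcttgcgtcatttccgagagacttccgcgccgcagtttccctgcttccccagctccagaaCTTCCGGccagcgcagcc

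Complex II had the smallest range of change. SDHA (ENSG00000073578), the flavoprotein that oxidises succinate, stood at 180 and 179 CPM in DMSO and at 301 and 235 CPM after Neoribocic. Both Neoribocic libraries were above both DMSO libraries, and the gene rose by 0.58 ± 0.20 (log2 fold change ± SE, adjusted p = 0.0469). SDHB, the iron-sulfur subunit, stood at 71.7 and 67.9 CPM in DMSO and at 125 and 100 CPM after Neoribocic. The groups again did not overlap, and SDHB rose by 0.69 ± 0.20 (adjusted p = 0.0266). These were the 2 catalytic subunits, and both calls were lost without DMSO replicate 1, without DMSO replicate 2 or without Neoribocic replicate 1. The adjusted p then ran from 0.122 to 0.269 for SDHA and from 0.0751 to 0.169 for SDHB.

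The membrane anchors of complex II bind ubiquinone and did not pass the test. SDHC had 146 and 113 CPM in DMSO and 139 and 144 CPM after Neoribocic, overlapping groups, with a change of 0.13 ± 0.20 (adjusted p = 0.627). SDHD had 71.8 and 37.7 CPM in DMSO and 85.5 and 79.5 CPM after Neoribocic. Both of its Neoribocic values were higher, but the DMSO libraries lay far apart, and the change was 0.59 ± 0.30 (adjusted p = 0.154).

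In complex III the core subunits divided in direction. UQCRC1, a core protein of the matrix arm, had 116 and 109 CPM in DMSO and 241 and 188 CPM after Neoribocic. With no overlap between the groups, it rose by 0.93 ± 0.20 (adjusted p = 0.00824). UQCRC2, the partner core protein, had 84.2 and 59.4 CPM in DMSO and 41.2 and 47.5 CPM after Neoribocic. Both Neoribocic values were below both DMSO values, and it fell by 0.69 ± 0.24 on the log2 scale (adjusted p = 0.0457), the only member that fell. That call was lost without DMSO replicate 1, Neoribocic replicate 1 or Neoribocic replicate 2, where the adjusted p ran from 0.0907 to 0.242.

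The nuclear-encoded electron-carrying subunits of complex III both rose. MT-CYB, the mitochondrially encoded one, had a change of -1.41 and did not pass the test (adjusted p = 0.0726). UQCRFS1, the Rieske iron-sulfur protein, had 78.2 and 65.7 CPM in DMSO and 153 and 125 CPM after Neoribocic, and rose by 0.95 ± 0.21 (adjusted p = 0.00836). CYC1, cytochrome c1, had 206 and 223 CPM in DMSO and 531 and 347 CPM after Neoribocic, and rose by 1.03 ± 0.24 (adjusted p = 0.0102). Neither gene's groups overlapped. Without Neoribocic replicate 1 the calls of UQCRC1 (adjusted p = 0.0667), UQCRFS1 (0.0639) and CYC1 (0.0788) were lost, and that of CYC1 also without DMSO replicate 1 (0.0584).

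Small subunits of complex III had a median change of 1.14, against 0.94 for the core subunits, and the difference was not tested. UQCR11 had 51.5 and 35.8 CPM in DMSO and 276 and 105 CPM after Neoribocic, and rose by 2.13 ± 0.52 (adjusted p = 0.0294). UQCRQ had 44.3 and 35.2 CPM in DMSO and 231 and 81.0 CPM after Neoribocic, and rose by 1.97 ± 0.54 (adjusted p = 0.0409). Each of these lost its call when either DMSO library was left out. UQCRHL rose by 1.09 ± 0.35 (adjusted p = 0.0353) from 1.44 and 1.31 CPM in DMSO to 3.37 and 2.51 CPM after Neoribocic, and lost its call without any 1 of the 4 libraries. UQCRHL is named for its likeness to UQCRH, the hinge protein. Its principal transcript shares 7.65% of its 50-base windows with UQCRH, so its counts are uncertain. UQCRH (1.19, adjusted p = 0.0692), UQCRB (0.92, 0.21) and UQCR10 (0.89, 0.0821) did not pass the test. The median difference between Neoribocic replicates 2 and 1 was -1.28 for the small subunits and -0.33 for the core subunits.

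CYCS, the soluble carrier between complexes III and IV, followed neither complex. It had 170 and 86.6 CPM in DMSO and 143 and 145 CPM after Neoribocic. The Neoribocic values lay between the DMSO values, which were far apart, and the change was 0.17 ± 0.31 (adjusted p = 0.694). The annotation names 40 pseudogenes of CYCS, so its counts may hold reads shared with them. HCCS, which attaches heme to cytochrome c, had a change of 0.40 and was not called.

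Complex IV had the largest median change. COX4I1, the common form of the regulatory subunit COX4, had 77.5 and 65.7 CPM in DMSO and 188 and 135 CPM after Neoribocic, and rose by 1.18 ± 0.23 (adjusted p = 0.00513). COX8A had 85.4 and 69.6 CPM in DMSO and 306 and 179 CPM after Neoribocic, and rose by 1.65 ± 0.28 (adjusted p = 0.0038). Neither gene's groups overlapped. Of the 19 members that rose, COX4I1 and COX8A were the 2 that were called whichever 1 library was left out. On the same strand, 34.5% of the exon bases of COX8A are shared with AP000721.1.

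COX5B, a zinc-binding subunit on the matrix side, had 45.9 and 42.0 CPM in DMSO and 202 and 102 CPM after Neoribocic. Its groups did not overlap and it rose by 1.79 ± 0.32 (adjusted p = 0.00553). Without DMSO replicate 1 or 2 the adjusted p was 0.0526 and 0.0584. COX5A, which assembles together with COX4I1, had 77.0 and 82.6 CPM in DMSO and 116 and 99.6 CPM after Neoribocic. Its groups did not overlap either, but the change of 0.43 ± 0.19 did not pass the test (adjusted p = 0.105). COX6A1 (1.18, adjusted p = 0.0175) and COX6B1 (1.27, 0.0316) rose as well, and both lost the call without DMSO replicate 1 or Neoribocic replicate 1, COX6A1 also without DMSO replicate 2.

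COX7A2L, a COX7A-related protein that links complexes III and IV in supercomplexes, had 43 and 49.6 CPM in DMSO and 98.5 and 75.7 CPM after Neoribocic. Its groups did not overlap and it rose by 0.91 ± 0.22 (adjusted p = 0.0129), and leaving out DMSO replicate 1 (0.0666) or Neoribocic replicate 1 (0.0948) ended the call. COX7B shows the gap between the treated libraries at its widest in this complex, with 53.0 and 37.2 CPM in DMSO and 209 and 50.7 CPM after Neoribocic. One Neoribocic value lay between the DMSO values, and the change of 1.52 ± 0.77 did not pass the test (adjusted p = 0.198). COX6C (1.83, adjusted p = 0.0642), COX7A2 (1.77, 0.0592) and COX7C (1.28, 0.162) did not pass either, and 17 pseudogenes of COX6C are named in the annotation. All 11 tested genes of complex IV had a positive change.

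The isoforms of complex IV known from lung, muscle and testis were not expressed at a testable level. COX4I2, the alternative to COX4I1, and COX6A2, COX7B2 and COX8C had 0 counts in all 4 libraries, which allows up to 3 counts, or 0.0632 to 0.0915 CPM, in a library. COX6B2 had 8 and 0 counts in DMSO and 2 and 16 after Neoribocic, and COX7A1 had 0 and 1 in DMSO and 3 and 8 after Neoribocic. NDUFA4, once assigned to complex I and now also counted as a complex IV subunit, is no member by its symbol. It had 53.6 and 46.6 CPM in DMSO and 277 and 99.7 CPM after Neoribocic, and rose by 1.91 ± 0.51 (adjusted p = 0.039). That call was lost without DMSO replicate 1 or 2 (adjusted p 0.199 and 0.203).

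Complex V was the least uniform. In its catalytic F1 head, ATP5F1B, the beta subunit that holds the catalytic sites, had 320 and 249 CPM in DMSO and 582 and 526 CPM after Neoribocic. No overlap was seen, and it rose by 0.96 ± 0.21 (adjusted p = 0.00792). ATP5F1A, the alpha subunit that alternates with beta in the head, had 136 and 114 CPM in DMSO and 118 and 98.7 CPM after Neoribocic. Those groups overlapped, and the change was -0.21 ± 0.20 (adjusted p = 0.434).

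Central stalk genes also differed from one another in their change. ATP5F1C (gamma) had 164 and 154 CPM in DMSO and 174 and 143 CPM after Neoribocic, with a change of 0.00 ± 0.19 and an adjusted p of 1. ATP5F1D (delta) had 24.4 and 36.3 CPM in DMSO and 62.1 and 48.3 CPM after Neoribocic, and rose by 0.86 ± 0.26 (adjusted p = 0.03). ATP5F1E (epsilon) had 86.5 and 77.4 CPM in DMSO and 530 and 160 CPM after Neoribocic, and its change of 2.07 ± 0.61 did not pass the test (adjusted p = 0.0552). The call of ATP5F1D was lost without replicate 1 of either group, and that of ATP5F1B without Neoribocic replicate 1 (adjusted p = 0.0515). ATP5IF1, the inhibitor that blocks ATP hydrolysis by the head, had 69.2 and 69.8 CPM in DMSO and 134 and 86.2 CPM after Neoribocic. Here too the groups were apart, and the change of 0.66 ± 0.24 missed the threshold (adjusted p = 0.0568).

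The c ring, through which protons pass, is built from 1 mature protein encoded by the 3 genes ATP5MC1, ATP5MC2 and ATP5MC3. ATP5MC1 had 51.0 and 43.9 CPM in DMSO and 141 and 55.6 CPM after Neoribocic, with a change of 1.05 ± 0.45 (adjusted p = 0.112). ATP5MC2 had 113 and 101 CPM in DMSO and 115 and 101 CPM after Neoribocic, with a change of 0.01 ± 0.19 (adjusted p = 0.974). ATP5MC3 had 101 and 78.7 CPM in DMSO and 218 and 140 CPM after Neoribocic, and rose by 1.0 ± 0.26 (adjusted p = 0.0167). Thus 1 of the 3 c genes passed the test, and ATP5MC3 lost its call without DMSO replicate 2 or Neoribocic replicate 1. The 3 genes were not tested against each other.

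Small membrane subunits of complex V, which hold dimers of the enzyme together, had a median change of 1.46. ATP5MG (subunit g) had 110 and 86.4 CPM in DMSO and 361 and 180 CPM after Neoribocic, and rose by 1.46 ± 0.34 (adjusted p = 0.0168), which did not pass when DMSO replicate 1, DMSO replicate 2 or Neoribocic replicate 1 was left out. ATP5MK had 39.0 and 29.9 CPM in DMSO and 326 and 78.7 CPM after Neoribocic, the largest change among the 45 members at 2.55 ± 0.79, which did not pass the test (adjusted p = 0.0767). ATP5ME had 23.2 and 22.2 CPM in DMSO and 155 and 41.0 CPM after Neoribocic, a change of 2.11 ± 0.67 (adjusted p = 0.0673). On the other strand, MYL5 overlaps 61.6% of the exon bases of ATP5ME, and the strand setting of the counting is not known here. ATP5MJ (1.44, adjusted p = 0.0541) and ATP5MF (0.61, 0.133) did not pass the test, and the groups of none of these 5 genes overlapped.

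Peripheral stalk genes, whose products hold the F1 head still, had a median change of 0.22. ATP5PD had 60.9 and 41.8 CPM in DMSO and 109 and 87.6 CPM after Neoribocic, and rose by 0.93 ± 0.24 (adjusted p = 0.0175), and DMSO replicate 2 and Neoribocic replicate 1 were each needed for the call. ATP5PB had 232 and 186 CPM in DMSO and 162 and 138 CPM after Neoribocic. Both Neoribocic values were lower, and the change of -0.48 ± 0.20 did not pass the test (adjusted p = 0.0892). ATP5PF (0.42, adjusted p = 0.282) and ATP5PO (0.02, 0.964) had overlapping groups. The readthrough ATP5MF-PTCD1 shares 88.3% of its exon bases with its neighbours and had a change of 0.53 (adjusted p = 0.494), and ATP5MGL had 0 counts in 3 libraries and 2 counts in Neoribocic replicate 2.

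Levels between genes were compared as CPM per kilobase of the shortest principal transcript. In DMSO, COX6A1 was highest with a mean of 328, followed by ATP5MF with 224, CYC1 with 173, COX6B1 with 164 and CYCS with 161. After Neoribocic the means of COX6A1, ATP5MK, COX6C, ATP5F1E and COX8A were 742, 555, 533, 495 and 479. In Neoribocic replicates 1 and 2, in that order, the values were 952 and 532, 894 and 216, 810 and 255, 760 and 229, and 604 and 353. In replicate 2, ATP5F1B (286) and CYC1 (280) lay above ATP5MK, COX6C and ATP5F1E, none of which passed the test. SDHC had 9.54 per kilobase in DMSO, a value that rests on an annotated transcript of 13566 bases. Ranks also depend on the choice of transcript, as the longest was at least 2 times the shortest for 13 members. CYCS has principal transcripts from 799 to 4098 bases and ATP5F1E from 697 to 3665, and their values would be lower with the longest. UQCRHL and ATP5MF-PTCD1 lay near 1 per kilobase.

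**Figure D3:**
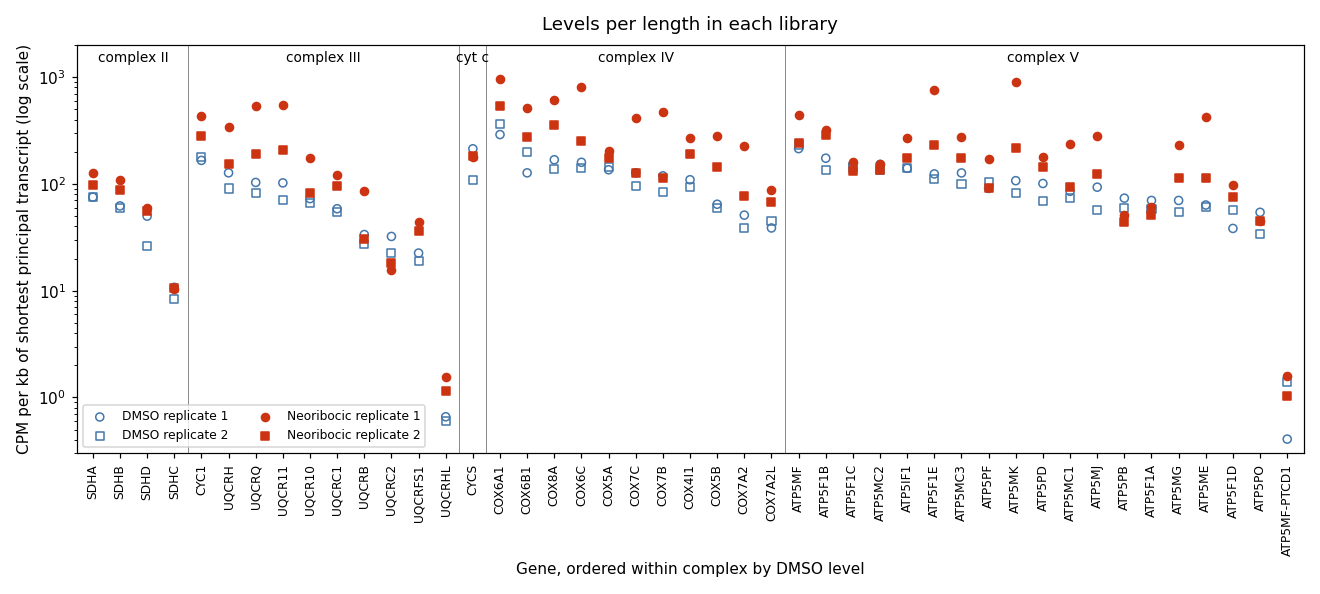
Levels of the 45 tested genes in each library are shown as CPM per kilobase of the shortest principal transcript on a log axis, ordered within each complex by the DMSO level. COX6A1 is highest in DMSO with a mean of 328, and UQCRHL and ATP5MF-PTCD1 lie lowest.

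Transcript length moved with these changes across the whole table. Short transcripts were higher after Neoribocic and higher in Neoribocic replicate 1 than in replicate 2. Over 13862 genes, Spearman's rho between the fold change and the longest principal transcript was -0.40, and that between the replicate difference (2 minus 1) and length was 0.42. Over the 45 members these were -0.39 and 0.37. With the shortest principal transcript they were -0.39 and 0.39 over all genes and -0.55 and 0.60 over the members. With GC content the fold change had a rho of 0.45 over all genes and 0.01 over the members. All points share the same 4 libraries. Members had a median length of 1240 bases, against 3106 for all tested genes, and 24 of the 45 belonged to the 1388 genes with the shortest transcripts (207 to 1285 bases). Among those the median change was 0.73, and 37.5% of genes rose. The 28 members under 1000 bases by the shortest principal transcript had a median change of 1.18 and a median replicate difference of -0.94, and the other 17 had 0.69 and -0.32. The part of length in the members' change was not tested apart from the corrected fits.

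**Figure D4:**
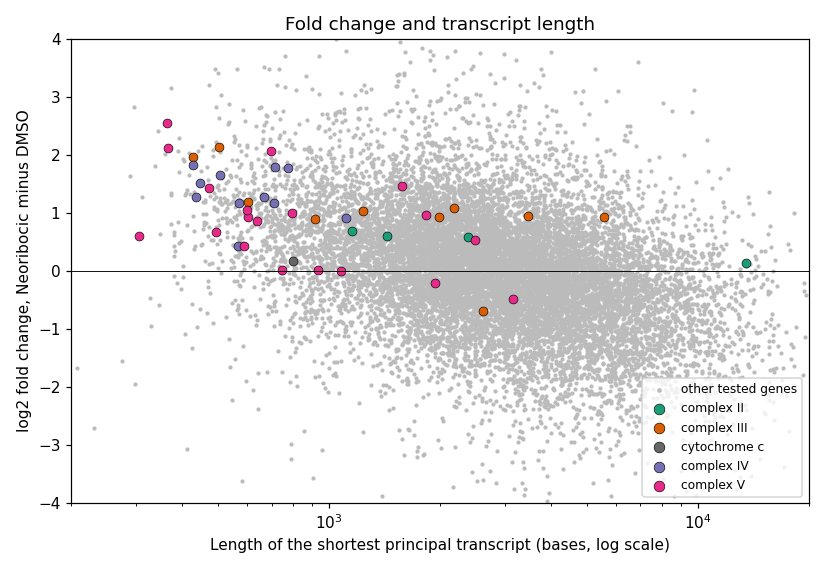
Log2 fold change is plotted against the length of the shortest principal transcript (log axis) for the tested members, coloured by complex, and for 13706 other tested genes in grey. Genes outside the plotted range are not drawn. Most members stand at the short end of the length axis and above 0.

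Another pair of fits corrected each library for a smooth trend of log2 CPM with transcript length and GC content, taking the longest or the shortest principal transcript. The second was chosen after seeing the data. With the longest, the median change was 0.51 over the members, 0.50 in complex II, 0.88 in complex III, 0.99 in complex IV and 0.04 in complex V. With the shortest it was 0.50 over the members and 0.58, 0.76, 0.83 and 0.02 in complexes II to V. With the longest, 0 members fell by edgeR's test (19.0% of all genes), or 3 at an unadjusted p under 0.05, and with the shortest 1 fell, ATP5MC2 (18.9% of all genes). The shares of members that rose, 9 and 8 of 45, were near the 17.2% and 17.1% of all genes. In complex V, 10 of the 19 genes stood above 0 with the longest transcript. The corrections follow the trend of all genes, which the members did not share for GC content. Corrected changes had a rho with GC content of -0.57 (longest) and -0.42 (shortest) over the members. Over all genes these were 0.01 and 0.02. Whether the corrections suit the members was not tested.

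UQCRFS1, UQCRHL, COX5B, COX7A2L, ATP5F1B and ATP5MG were the 6 members that rose in the uncorrected fit and in both corrected fits. With the longest transcript their changes were 1.33, 1.15, 0.99, 1.27, 0.64 and 1.5, in the same order. COX4I1 had a change of 0.36 (adjusted p = 0.134, against 4.53e-05 to 0.134 over 16 alternatives), and COX8A of 0.51 (adjusted p = 0.0715, against 1.09e-06 to 0.0715), although COX8A passed with the shortest transcript. SDHA and SDHB had corrected changes of 0.20 and 0.36 and CYC1 of 0.13, none of them called. SDHC was called only in corrected fits, with changes of 1.23 and 1.32, which rest on its annotated transcript of 13566 bases. For 13 members the longest principal transcript was at least 2 times the shortest, among them ATP5MC3 with 5484 and 795 bases, whose corrected change was 1.74 (called) with the first and 0.56 (not called) with the second.

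**Figure D5:**
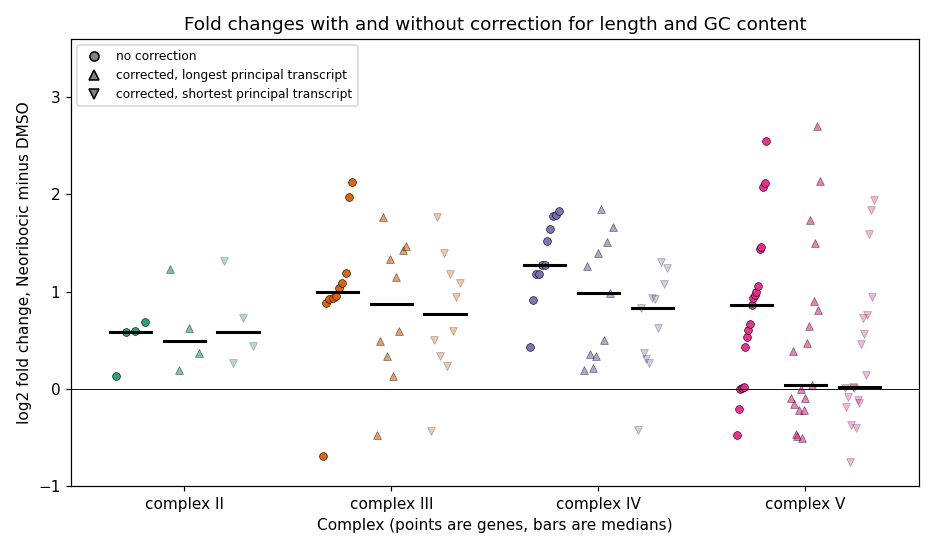
Log2 fold changes of the tested genes are shown by complex without correction (circles) and with correction by the longest (upward triangles) or shortest (downward triangles) principal transcript, and bars mark medians. The complex V median goes from 0.86 to 0.04 and 0.02, whereas the complex IV median goes from 1.28 to 0.99 and 0.83.

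Complex I, whose nuclear subunits were scored the same way, had 18 of 36 genes that rose (19.1% of all genes), 1 that fell (21.3% of all) and a median change of 0.95. After the corrections by the longest and the shortest transcript, 7 and 8 rose (17.2% and 17.1% of all genes), and the medians were 0.39 and 0.38. In 12 of its genes Neoribocic replicate 1 was at least 2-fold above replicate 2. No test of the difference from complexes II to V was made.

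Assembly factors build the complexes and are not subunits. The counts for this and the following lists stand against 19.1% of all tested genes that rose and 21.3% that fell. Of the complex II factors, 2 of 4 rose, with a median of 0.80. SDHAF4, which binds the flavinated SDHA, had 5.53 and 5.98 CPM in DMSO and 48.0 and 31.8 CPM after Neoribocic. Its groups did not overlap and it rose by 2.80 ± 0.28 (adjusted p = 0.000656), and it was called in each of 16 alternative analyses. SDHAF1, which serves the iron-sulfur subunit, rose by 1.34 (adjusted p = 0.0068), a call lost without Neoribocic replicate 1, and its corrected change of 0.38 was not called.

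For complex III, 4 of 9 assembly factors rose, with a median of 0.93, among them UQCC4 (1.81, adjusted p = 0.0028) and UQCC3 (1.48, 0.00656), which lost its call without DMSO replicate 2. For complex IV, 11 of 29 rose and 2 fell, with a median of 0.52, and SCO2 counts under 2 gene IDs there. SURF1 (1.46, adjusted p = 0.00306) and COX19 (1.16, 0.00462), which help to mature the COX1 module and to deliver copper, rose. LRPPRC, which stabilises mitochondrial mRNAs, had 165 and 119 CPM in DMSO and 43.3 and 51.0 CPM after Neoribocic. All Neoribocic values were below all DMSO values, and it fell by 1.59 ± 0.23 (adjusted p = 0.00172). COX11, a copper chaperone, fell by 1.51 (adjusted p = 0.00513). Both were called in each of 16 alternative analyses. For complex V, 2 of 6 factors rose, with a median of 0.58. They were ATPAF2 (1.40, adjusted p = 0.0027), which chaperones the alpha subunit, and TMEM242 (0.87, 0.0206), which lost its call without either DMSO library or without Neoribocic replicate 1. In the lists for complexes II, III and V, 0 factors fell by edgeR's test, and 1, 0 and 1 did so at an unadjusted p under 0.05. With the longest- and shortest-transcript corrections the medians were 0.40 and 0.50 for complex II factors and 1.04 and 0.56 for complex III. They were 0.32 and 0.30 for complex IV and 0.78 and 0.86 for complex V.

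The 6 mitochondrially encoded subunits of complexes III, IV and V went the other way on average, with a median of -1.44. Of these, 2 fell by edgeR's test, 4 by DESeq2 and 4 at an unadjusted p under 0.05 in either, and 0 rose in any of these. MT-CO3 had 11532 and 28499 CPM in DMSO and 6858 and 7505 CPM after Neoribocic, and fell by 1.48 ± 0.43 (adjusted p = 0.0285). MT-CO1 fell by 1.36 ± 0.46 (adjusted p = 0.0476). Summed, the 6 genes had 49839 and 137285 CPM in DMSO and 36068 and 40932 CPM after Neoribocic. DMSO replicate 2 was more than 2 times as high as any other library. Without it the changes were -0.67 for MT-CO3 (adjusted p = 0.0501) and -0.49 for MT-CO1 (adjusted p = 0.106). Both calls were also lost without either Neoribocic library.

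Of 9 transcription factors and coactivators of respiratory genes, 1 rose and 1 fell, with a median of -0.38. With the longest- and shortest-transcript corrections the median was above 0, at 0.09 and 0.13. NRF1 had 19.3 and 20.03 CPM in DMSO and 35.1 and 30.5 CPM after Neoribocic, and rose by 0.74 ± 0.22 (adjusted p = 0.0285). GABPA, the DNA-binding subunit of the ETS factor GABP, had 35 and 24.1 CPM in DMSO and 15.3 and 17.9 CPM after Neoribocic, and fell by 0.83 ± 0.26 (adjusted p = 0.0332). Neither gene's groups overlapped. NRF1 lost its call without any 1 of the 4 libraries. GABPA lost it without any library except DMSO replicate 2, and its corrected change was -0.15. GABPA and JAM2 overlap 23.1% of the exon bases of ATP5PF on the other strand.

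Neighbouring mitochondrial pathways were mixed. In the tricarboxylic acid cycle outside complex II, 3 of 13 enzymes fell, with a median of 0.06 (-0.14 and -0.07 with the longest- and shortest-transcript corrections). Among them, IDH3A, a subunit of isocitrate dehydrogenase, fell by 1.11 (adjusted p = 0.00449) and SUCLA2, a subunit of succinyl-CoA synthetase, fell by 1.37 (0.00711). In ubiquinone synthesis 5 of 11 genes rose and 2 fell, with a median of 0.60. With the 2 corrections, in the same order, that median was 0.07 and 0.09. COQ8B (1.21) and COQ5 (1.14) were among those that rose, and PDSS1 and PDSS2, which make the side chain, fell by 1.03 and 0.85. PDSS1 lost its call without Neoribocic replicate 1, and PDSS2 kept it only without DMSO replicate 2. Of the MICOS genes and OPA1, which shape the cristae, 2 of 8 rose (CHCHD6, 1.32, and MICOS13, 2.05) and 3 fell, with a median of -0.28. Neither CHCHD6 nor MICOS13 was called in the corrected fits, where the median was -0.42 and -0.35. CHCHD6 was called only when Neoribocic replicate 2 was the library left out, and MICOS13 only when a Neoribocic library was. IMMT fell by 1.30 (adjusted p = 0.00172) and OPA1 by 1.72 (adjusted p = 0.0026). IDH3A, SUCLA2, COQ8B, COQ5, IMMT and OPA1 were called in each of 16 alternative analyses.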

How the data were processed

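The authors deposited raw counts per Ensembl gene, whole numbers, for 2 DMSO and 2 Neoribocic libraries of MDA-MB-231 mRNA. The aligner, the counter and its strand setting are not named in the labels, and the submitters' processing notes name only mouse builds, so counts were read by gene ID. Of 20263 IDs, 20148 were in the gene names table and 20224 in GENCODE release 29, which gave transcript lengths, GC content and exon overlaps. Genes were kept with filterByExpr by group (13879), scaled by TMM and fitted with edgeR 4.0.16 (R 4.3.3), a trended dispersion and a robust quasi-likelihood fit on group alone. P-values were adjusted by Benjamini-Hochberg over all tested genes, with a threshold of 0.05, and standard errors are the size of the log2 change over the square root of F. The fit was tested on simulated data. Lists were read out of this fit as counts and medians, with no set test. Named members are a list of main subunits plus up to 3 per complex and direction with the smallest p, and up to 2 per direction from other lists. Some genes of these lists are not reported here. The members and lists were chosen with earlier results of these data known. Alternatives were other scalings and filters, DESeq2 1.42.0, limma-voom (limma 3.58.1), halved counts, a replicate block, leaving out each library or the mitochondrially encoded genes, and length and GC offsets (mgcv 1.9.3). Promoters are RefSeq's, GRCh38.p14. Floors cover counting error only.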

Additional observations from a re-analysis of the deposited data

How the results depend on the processing

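The number of members that rose, 19 in the analysis reported, was 29 with DESeq2, 9 and 8 with length and GC offsets from the longest and the shortest principal transcript, and 7 to 33 when 1 library was left out. The single member that fell was lost (0 fell) with library totals, upper-quartile factors, limma-voom, the longest-transcript offsets and when DMSO replicate 1, Neoribocic replicate 1 or Neoribocic replicate 2 was left out, a range of 0 to 1 over the 4 fits without 1 library. UQCRC2, the member that fell, was not called with the shortest-transcript offsets either, where the 1 member that fell was ATP5MC2. The complex V median of 0.86 went to 0.041 and 0.022 with the 2 kinds of offset, and over the fits without 1 library it ran from 0.32 to 1.03. The complex II median went to 0.73 with library totals and ran from 0.40 to 0.70 without 1 library, and that of complex IV ran from 0.76 to 1.89. The number of all genes called, 5610, ran from 2468 to 4536 without 1 library, where a lone library is assumed to vary like the others. Library totals and upper-quartile factors moved the median of all genes by 0.17 and 0.12, so members shift upward with them. The cause of these changes was not tested.

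Same-numbered libraries were not paired by any label, and their deviations from the group means correlated at -0.05. With the replicate number as a block, 30 members rose (19.3% of all genes) and 0 fell (21.0% of all). With the block and the longest-transcript offsets 14 rose (16.6% of all), 0 fell (18.1% of all) and the complex V median was 0.17.

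Apart from ATP5F1D, which lost its call, the members that changed sign had not passed the test in the analysis reported. With the longest-transcript offsets the changes became 0.39 (ATP5F1A), -0.16 (ATP5F1C), -0.094 (ATP5F1D), -0.22 (ATP5IF1), -0.46 (ATP5MC2), -0.50 (ATP5MF), -0.0038 (ATP5MF-PTCD1), -0.22 (ATP5PF) and -0.49 (ATP5PO). With the shortest-transcript offsets, chosen after seeing the data, they became -0.42 (COX5A), -0.082 (ATP5F1C), -0.15 (ATP5F1D), -0.12 (ATP5IF1), -0.75 (ATP5MC2), -0.40 (ATP5MF), 0.0075 (ATP5PB), -0.37 (ATP5PO) and -0.034 (CYCS). With the replicate block and offsets together they became 0.38 (ATP5F1A), -0.16 (ATP5F1C), -0.081 (ATP5F1D), -0.22 (ATP5IF1), -0.017 (ATP5MC1), -0.46 (ATP5MC2), -0.51 (ATP5MF), -0.25 (ATP5PF) and -0.45 (ATP5PO). ATP5F1C, at 0.00, became -0.0028 without a count filter, -0.0069 with limma-voom and -0.0062 with the block. Without 1 library, the change ran from -0.029 to 0.32 for SDHC, -0.23 to 0.73 for CYCS, -0.14 to 0.14 for ATP5F1C, -0.078 to 0.10 for ATP5MC2, -0.11 to 1.69 for ATP5MF-PTCD1, -0.077 to 0.80 for ATP5PF and -0.27 to 0.40 for ATP5PO. Counts of both mates would make counting precision lower than the totals imply, and halving all counts left the 19 calls in place.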
